A study of Rattus norvegicus with 16 samples.

Results

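Receptors for serotonin, dopamine, noradrenaline and adrenaline, acetylcholine and histamine were followed in rat dentate gyrus, where cortical fibres enter the hippocampus. All probe sets were taken whose single annotated symbol begins with Htr, Drd, Adra, Adrb, Chrm, Chrn or Hrh followed by the number or letter of a subtype, which gave 68 of the 8740 probe sets that are not controls, and 48 of the 4736 genes they name. Total RNA was hybridised to 16 single-colour Affymetrix RGU34A arrays in 7 groups: 3 arrays were naive, 3 were of 6 h, and there were 2 arrays for each of 0, 2, 3, 12 and 24 h. Every group is rat dentate gyrus, and each label, also that of a naive array, refers to rats trained in passive avoidance, in which an animal learns to hold back a move that earlier brought an unpleasant stimulus. The naive group is read here as untrained and the others as trained; the labels do not say from what event the hours count. The sources used here give no strain, sex, age or number of animals per array. Nothing says that replicates are separate animals, so the p-values reflect sample-to-sample spread alone, and that spread may be technical.

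The dentate gyrus is reached by noradrenergic fibres from the locus coeruleus, serotonergic fibres from the raphe nuclei, cholinergic fibres from the medial septum and histaminergic fibres from the hypothalamus. Most of their receptors couple to G proteins: one class raises cyclic AMP, another lowers it, and the remainder act through phospholipase C. Nicotinic receptors and the serotonin receptor built from Htr3a are instead ion channels assembled from 5 subunits around a pore. In tissue RNA, fewer cells of a type and less RNA per cell cannot be told apart.

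Intensities were brought to a common scale, and a probe set was called above the detection level on an array where its scaled intensity exceeded 16.9, the pooled 40th percentile of all probe sets and arrays. Before scaling, the trimmed mean intensity ranged from 33.3 on 12 h replicate 1 to 170 on 24 h replicate 2, and correlations between arrays were 0.908 to 0.973. Among markers of dentate granule neurons, Calb1, which encodes calbindin, read 289 to 498, and Neurod1, a transcription factor of these cells, read 72.1 to 167 by one probe set. Both were above the detection level on all 16 arrays, while Tdo2 was above it on 0 arrays (0.742 to 8.20). Transthyretin, Ttr, which marks choroid plexus, lay between 10.88 and 12.02 (log2) on naive arrays and between 5.51 and 12.06 on trained ones. The beta-actin 3'/5' ratio, which is higher for shorter RNA, was 1.49 to 1.70 on naive and 1.51 to 2.80 on trained arrays.

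Few of these receptors gave a steady signal. Of the 68 receptor probe sets, 15 (22.1%) were above the detection level on all 16 arrays, against 46.4% of all probe sets. Another 30 were above it on 2 to 15 arrays, and 23 (33.8%, against 28.8% of all probe sets) on 0 or 1 array. Every array of at least 1 group was above the level for 33 of the receptor probe sets (48.5%). The share of all probe sets that meet this condition is not given here, so the count is a description only. The 15 steady probe sets belong to 14 genes: Htr3a and Htr5b for serotonin, Drd3 and Drd5 for dopamine, Adra1d, Adra2a, Adra2b, Adra2c and Adrb3 for adrenaline and noradrenaline, Chrm3 and Chrm4 of the muscarinic receptors, and Chrna7, Chrnb4 and Chrng of the nicotinic subunits. Each array held between 23 and 36 receptor probe sets above the level.

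Control probe sets give the background of these readings. The 19 controls for bacterial poly(A) and yeast transcripts were above the detection level on 0 arrays and reached at most 16.4. The 15 controls on the opposite strand of other targets were less quiet: 11 exceeded the level on at least 1 array, 3 did so on all 16, and the highest of their medians was 43.3. A signal above the level is therefore a reading of the probe set, and does not by itself show that the transcript is present. Some steady receptor probe sets had medians under 43.3: those of Adra2b (25.6), Drd5 (33.9), Chrna7 (35.2), Chrm4 (39.2), Adra2a (40.2) and Htr5b (41.1). Of the 68 receptor probe sets, 8 (11.8%) had a median over the 16 arrays above the pooled 60th percentile of 45.9. By definition 60% of the pooled readings of all probe sets lie at or under that value.

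**Figure D1:**
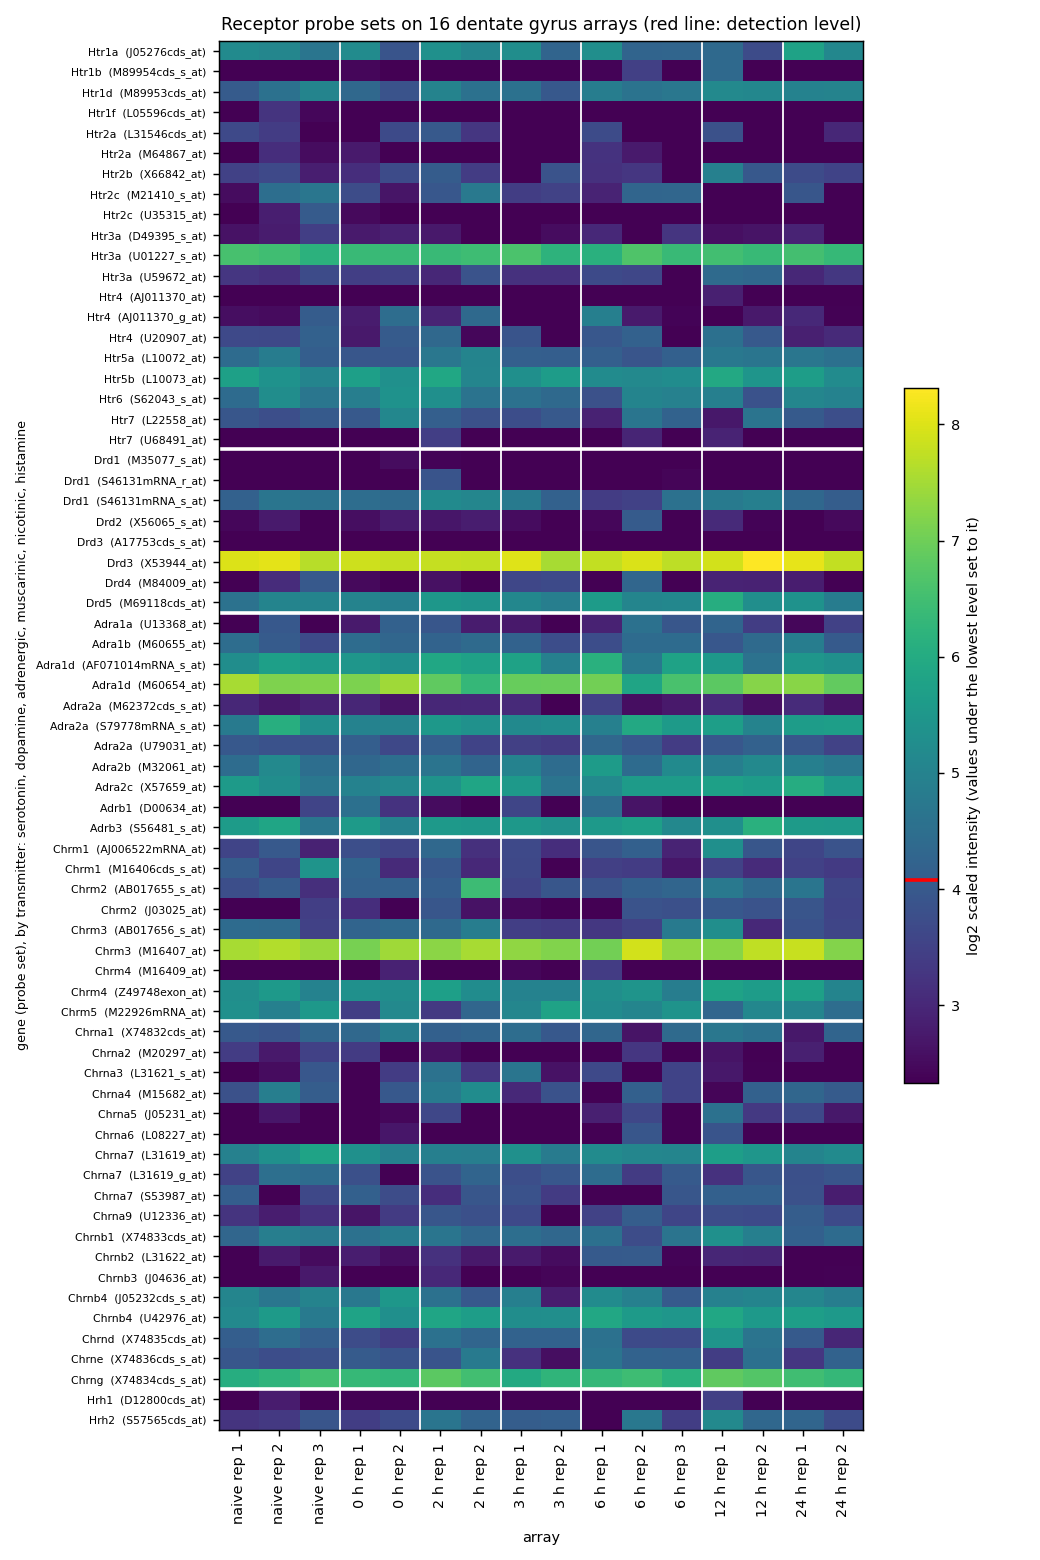
Log2 scaled intensity of the 68 receptor probe sets (rows, by transmitter and gene) on the 16 arrays (columns, by group), with values under the lowest level of 5.05 set to it. Colours can be compared along a row; few rows, among them Drd3, Chrm3, Htr3a and Adra2a by a probe set each, Chrng, and Adra1d by both, stay above the detection level (red line on the scale) from end to end.

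The adrenergic receptors had the most steady signal, with 6 of 11 probe sets above the level on all 16 arrays and 0 of 8 genes below it throughout. Adra1d encodes a noradrenaline receptor that acts through phospholipase C. Its probe set M60654_at read 184, 143 and 145 on the naive arrays, 140 and 176 at 0 h, 115 and 79.4 at 2 h, 121 and 124 at 3 h, 132, 56.3 and 96.8 at 6 h, 112 and 149 at 12 h, and 153 and 118 at 24 h. All arrays of the 2 h, 3 h and 6 h groups lay below every naive array, and those of the other hours overlapped with naive. Its alternative, AF071014mRNA_s_at, read 24.2 to 70.4 and overlapped with naive at 5 of 6 hours, the exception being 2 h, where both arrays (59.9 and 53.9) were above.

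Adra2a, Adra2b and Adra2c encode receptors that lower cyclic AMP. Adra2a by S79778mRNA_s_at read 27.9, 67.3 and 39.2 on naive arrays, 31.7 and 32.1 at 0 h, 46.3 and 41.3 at 2 h, 36 and 37.7 at 3 h, 30.7, 61.3 and 48.5 at 6 h, 51.2 and 32 at 12 h, and 50 and 51.2 at 24 h. Its lowest and its highest array were both naive, so every hour lay within the naive range. By U79031_at it was above the level on 4 arrays (10.3 to 20.3). Adra2b read 21.9, 35.5 and 22.4 on naive arrays, 20 and 22.5 at 0 h, 24.8 and 19.3 at 2 h, 31.6 and 22 at 3 h, 48.8, 21.6 and 36.7 at 6 h, 29.7 and 35.3 at 12 h, and 30.1 and 26.3 at 24 h. It was highest on 6 h replicate 1, and every hour overlapped with naive. Adra2c read 48.4, 38.4 and 26.3 on naive arrays, 31.5 and 35.1 at 0 h, 42.4 and 57.8 at 2 h, 47.3 and 24.8 at 3 h, 35.4, 49 and 48.8 at 6 h, 53.4 and 49.4 at 12 h, and 65.5 and 47.2 at 24 h. Both 12 h arrays were above every naive array and the other hours overlapped. Among receptors that raise cyclic AMP, Adrb3 read 49.4, 57.3 and 25.6 on naive arrays, 47.9 and 31.6 at 0 h, 46.7 and 45.4 at 2 h, 46.1 and 40.9 at 3 h, 47.1, 52.5 and 35.1 at 6 h, 39.5 and 70.6 at 12 h, and 48.2 and 46.9 at 24 h. It was highest on 12 h replicate 2 and overlapped with naive at every hour. The beta receptor Adrb1 was above the level on 2 arrays only, 0 h replicate 1 (23.2) and 6 h replicate 1 (22.2). Adra1b was above it on 10 arrays (12.8 to 29.2) and Adra1a on 3 (3.61 to 23.6).

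Serotonin receptors were the largest group by probe sets, with 20 for 13 genes, and 2 of the 20 were steady. Htr3a, the subunit of the serotonin-gated channel, had the narrowest spread of group means of the steady probe sets. By U01227_s_at it read 94.6, 89.6 and 71.9 on naive arrays, 83.7 and 84.0 at 0 h, 83.3 and 87.8 at 2 h, 98.5 and 73.9 at 3 h, 70.6, 102 and 84.3 at 6 h, 90.4 and 83.0 at 12 h, and 92.6 and 80.7 at 24 h. The group means on the log2 scale spanned 0.05, against a pooled SD within groups of 0.20, and trained minus naive was 0.01 (SE 0.17, 95% interval -0.34 to 0.36). Htr5b, of less settled coupling, read 53.3, 41.5 and 32.5 on naive arrays, 52 and 40.6 at 0 h, 59.3 and 33.5 at 2 h, 39.9 and 49.8 at 3 h, 37.1, 35.6 and 37.8 at 6 h, 61.6 and 44.1 at 12 h, and 50.4 and 37 at 24 h. It overlapped with naive at every hour.

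Htr1a lowers cyclic AMP and is known in hippocampus as a brake on granule and pyramidal cells. It was above the level on 14 arrays, reading 36.6, 34.0 and 25.3 on naive arrays, 37.0 and 14.7 at 0 h, 40.2 and 33.3 at 2 h, 38.5 and 19.2 at 3 h, 39.1, 19.2 and 19.6 at 6 h, 20.9 and 13 at 12 h, and 54.6 and 34.6 at 24 h. Both 12 h arrays were below every naive array (log2 difference -0.94, SE 0.46, limma adjusted p = 0.503), and within 0 h, 3 h and 6 h the arrays spread widely. Htr6, which raises cyclic AMP, was above the level on 14 arrays (14.2 to 42.0), and Htr1d and Htr5a on 13 each (14.6 to 35.7 and 15.1 to 32.9). Htr7 was above it on 5 arrays by L22558_at and on 0 by U68491_at (0.813 to 10.9). Htr4 was above it on 3 arrays by AJ011370_g_at, on 4 by U20907_at and on 0 by AJ011370_at (2.29 to 7.27). By every probe set, 4 serotonin receptor genes were above the level on 0 or 1 array: Htr1b, Htr1f, Htr2a and Htr2b.

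Dopamine receptors divide into those that raise cyclic AMP (Drd1, Drd5) and those that lower it (Drd2, Drd3, Drd4). Drd5 was above the level on all 16 arrays: 23.9, 32.6 and 32.8 in naive, 32.0 and 30.3 at 0 h, 45.6 and 42.4 at 2 h, 34.5 and 29.9 at 3 h, 49.0, 33.4 and 34.5 at 6 h, 66.3 and 39.1 at 12 h, and 41.5 and 28.8 at 24 h. Its arrays at 2 h, 6 h and 12 h all lay above every naive array, with the highest reading on 12 h replicate 1. Drd2 and Drd4 were above the level on 0 and 1 array. Drd3 by X53944_at read 257, 269 and 205 in naive, 231 and 221 at 0 h, 220 and 216 at 2 h, 259 and 186 at 3 h, 219, 250 and 211 at 6 h, 241 and 318 at 12 h, and 273 and 217 at 24 h. Every trained group overlapped with naive (trained minus naive -0.05, SE 0.15, interval -0.37 to 0.28), but the other Drd3 probe set, A17753cds_s_at, read 1.08 to 3.54.

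Muscarinic receptors that act through phospholipase C are encoded by Chrm1, Chrm3 and Chrm5, and those that lower cyclic AMP by Chrm2 and Chrm4. Chrm3 by M16407_at read 185, 197 and 170 in naive, 135 and 177 at 0 h, 156 and 185 at 2 h, 161 and 145 at 3 h, 132, 241 and 160 at 6 h, 152 and 215 at 12 h, and 225 and 148 at 24 h. The 3 h arrays lay just below every naive array and the other groups overlapped (trained minus naive -0.13, SE 0.19, interval -0.53 to 0.28). Chrm4 by Z49748exon_at read 39.3, 46.6 and 31.5 on naive arrays, 40.7 and 38.7 at 0 h, 52.5 and 37.6 at 2 h, 31.6 and 31.9 at 3 h, 39.1, 42.8 and 29.2 at 6 h, 55 and 50.2 at 12 h, and 53.6 and 32.9 at 24 h. Its 12 h arrays were above every naive array and the other hours overlapped. Chrm1, the abundant muscarinic receptor of forebrain principal neurons, was above the level on 3 arrays by each of its probe sets.

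Nicotinic subunits gave 18 probe sets for 15 genes, of which 5 encode the receptor of the neuromuscular junction and 10 are found in neurons or sensory cells. Of the neuronal ones, Chrna7, which forms a calcium-permeable channel on its own, was above the level on all 16 arrays by L31619_at: 31, 40.3 and 55.9 on naive arrays, 40.2 and 31 at 0 h, 30.3 and 29.9 at 2 h, 40.2 and 28.4 at 3 h, 37.4, 33.6 and 33.1 at 6 h, 51.8 and 44.2 at 12 h, and 32.6 and 36.7 at 24 h. Both 2 h arrays lay just below every naive array. By L31619_g_at it was above the level on 4 arrays, and its difference at 0 h, where replicate 2 read 4.60 (set to the lowest level), was -1.09 (SE 0.51, adjusted p = 0.972). Chrnb4 by U42976_at read 35.3, 48.5 and 27.7 on naive arrays, 55.8 and 39.7 at 0 h, 58 and 50.8 at 2 h, 38.2 and 39 at 3 h, 60.5, 48.5 and 44.2 at 6 h, 60 and 46.4 at 12 h, and 51.1 and 46.5 at 24 h. Both 2 h arrays were above every naive array. By J05232cds_s_at, above the level on 13 arrays, the 2 h arrays (23.7 and 15.8) were instead below every naive array (25.5 to 33.4), with a log2 difference of -0.64 (SE 0.51, adjusted p = 0.784). Chrna4 was above the level on 7 arrays (4.10 to 37.8), while Chrnb2, the usual partner of Chrna4 in brain, was above it on 0 (3.99 to 16.5). Chrna3 was above it on 2 (2.00 to 25.2). Chrna2, Chrna5, Chrna6 and Chrnb3 were above it on 0 or 1 array.

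The muscle-type subunits were also read. Chrng, the fetal subunit, was above the level on all 16 arrays (63.0 to 115), Chrnb1 on 15, Chrna1 on 11, Chrnd on 10 and Chrne on 6. Of the fixed skeletal muscle markers, 5 genes were on the array with 5 probe sets; the actin Acta1 was above the level on all 16 arrays (62.9 to 129), creatine kinase Ckm on 10 (5.47 to 64.1), Myh4 and Tnnt3 on 2 each, and Tnni2 on 0 (1.83 to 9.16). The part of muscle transcripts in these readings was not tested. Histamine receptors had 1 probe set per gene: Hrh2 was above the level on 8 arrays (2.79 to 35.4) and Hrh1 on 0 (0.993 to 11.1).

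Probe sets for the same receptor often disagreed. Of 15 receptor genes with more than 1 probe set, 3 (20%) had all of them in the same detection class (all 16, 2 to 15, or 0 or 1 array), against 48.1% of the 1565 such genes on the array. For 4 receptor genes (26.7%, against 17.1%) one probe set was above the level on all 16 arrays and another on 0 or 1: Drd3, Htr3a, Chrm4 and Adra2a. The medians were 226 and 1.63 for Drd3, 84.2 and 6.48 for Htr3a (with another probe set, U59672_at, above the level on 2 arrays), 39.2 and 1.82 for Chrm4, and 40.2 and 7.68 for Adra2a. Chrm3 had medians of 166 and 16.7, and its second probe set was above the level on 8 arrays. Across arrays, the 10 pairs of tested probe sets for the same gene had correlations from -0.30 to 0.20 (Pearson's r over 16 arrays, as a description). The detection of Drd3, Htr3a, Chrm4 and Adra2a thus rests on the probe set read.

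**Figure D2:**
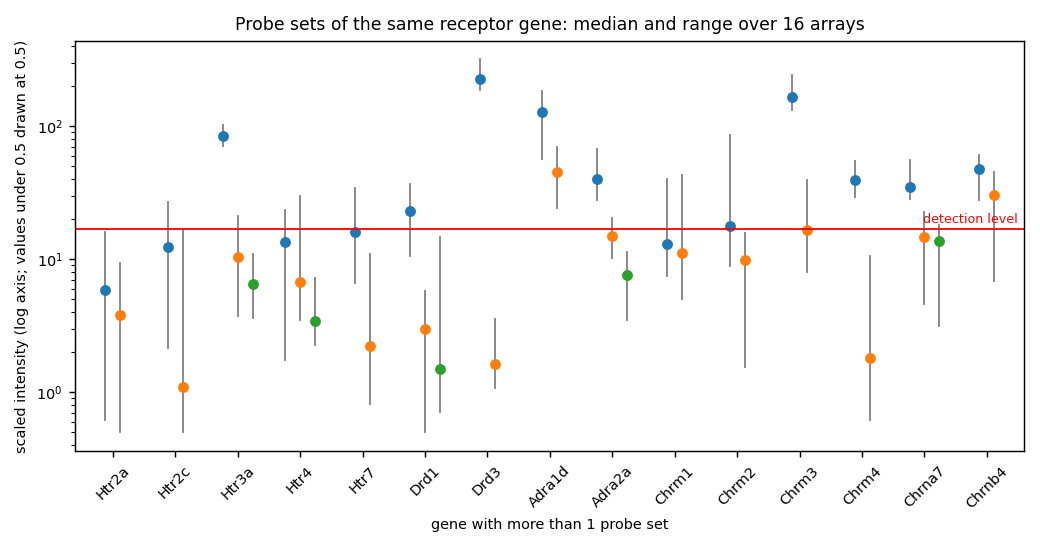
Median (dots) and range (lines) of the scaled intensity over the 16 arrays for each probe set of the 15 receptor genes with more than 1, on a log axis. For Drd3, Htr3a, Chrm4 and Adra2a one probe set lies wholly above the detection level of 16.9, and another has a median of 1.63 to 7.68.

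A probe set was tested for differences between groups if it exceeded the detection level on at least 2 arrays, which kept 45 of the 68 receptor probe sets (36 genes) among 6220 in all (71.2% of 8740). In limma's linear model with Benjamini-Hochberg adjustment over all 6220, 0 of the 45 passed a threshold of 0.05 in any of 9 comparisons: each of the 6 hours against naive, all trained groups against naive, and F tests, one across the 7 groups and one across the 6 trained times. Among all tested probe sets the share that passed was 0.0161% at 2 h and 0% in the other 8. The receptors with an unadjusted p under 0.05 numbered 1 for trained against naive (2.22%, against 5.35% of all tested), 1 at 0 h (2.22%, against 5%), 3 at 2 h (6.67%, against 7.67%), 1 at 3 h (2.22%, against 4.31%), 2 at 6 h (4.44%, against 9.41%), 4 at 12 h (8.89%, against 10.1%) and 0 at 24 h (against 4.44%). In the F tests they numbered 1 over the 7 groups (2.22%, against 10.3%) and 3 over the trained times (6.67%, against 10.8%). No share was above that of all tested probe sets.

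The median log2 difference of the 45 receptors, trained minus naive, was 0.01, beside -0.012 for all tested probe sets, with 24 above and 21 below naive. For the 15 steady probe sets it ran from -0.39 (Adra1d) to 0.42, and their 95% intervals lay within -0.85 and 0.85. The 30 others ran from -1.03 to 0.68, within -1.93 and 1.49. The steady probe sets had a median pooled SD within groups of 0.31 and the others of 0.62, so a difference of the same size is less certain in the latter.

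**Figure D3:**
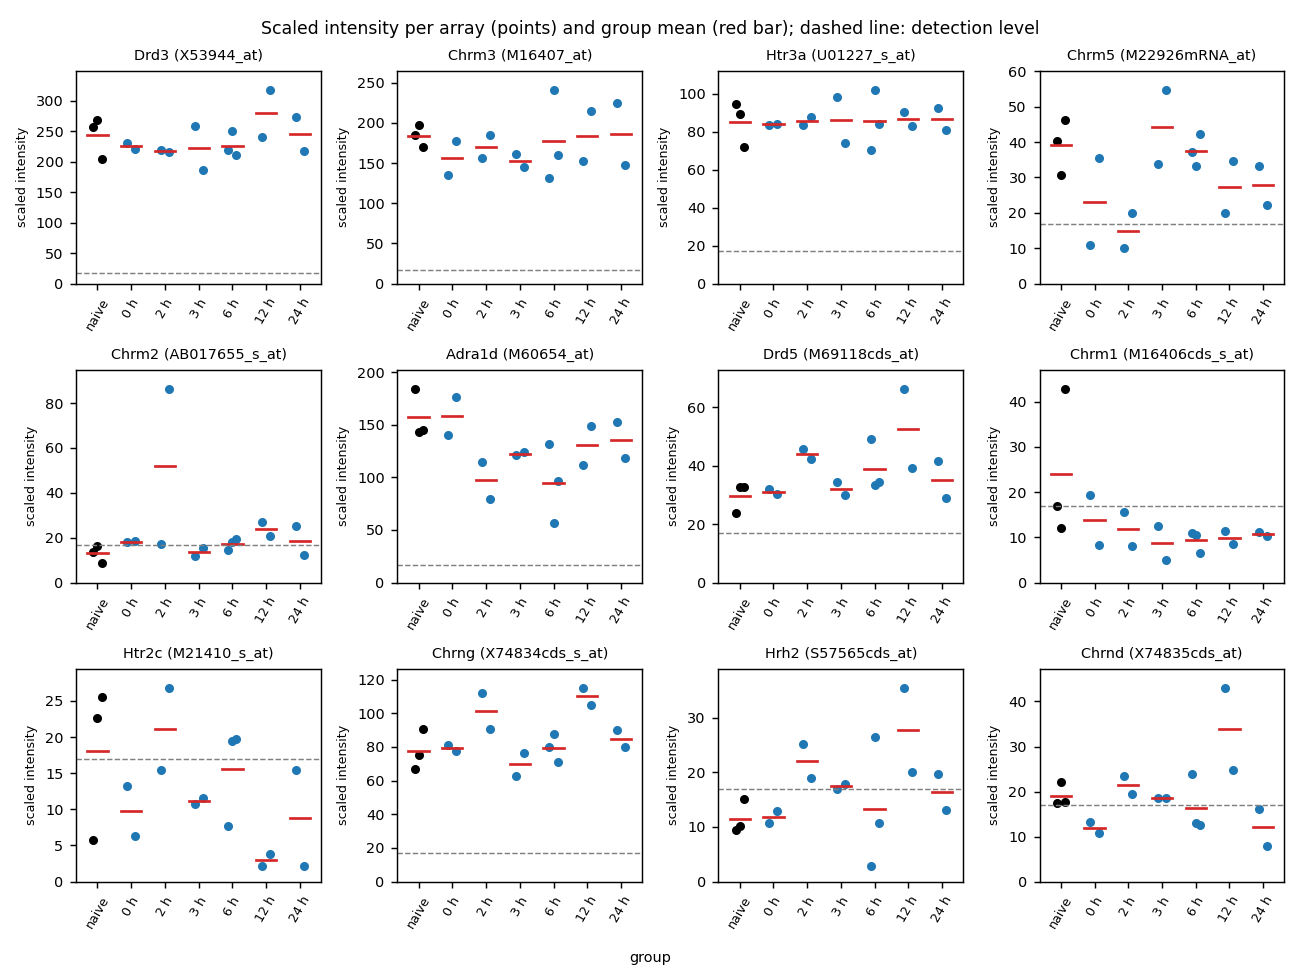
Scaled intensity on each array (points, naive in black) and group mean (red bars) for 12 receptor probe sets, each panel from 0, with the detection level of 16.9 dashed. Drd3, Chrm3 and Htr3a overlap with naive at nearly every hour, whereas single arrays stand apart for Chrm2 (86.3 on 2 h replicate 2), Chrm1 (42.8 on naive replicate 3) and Chrnd (43.0 on 12 h replicate 1).

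The 10 receptor genes with the smallest p in any comparison include 3 muscarinic ones. Chrm5 by M22926mRNA_at read 40.3, 30.8 and 46.3 in naive, 10.8 and 35.4 at 0 h, 10 and 19.9 at 2 h, 33.8 and 54.7 at 3 h, 37.3, 33.1 and 42.3 at 6 h, 19.9 and 34.5 at 12 h, and 33.2 and 22.3 at 24 h. Both 2 h arrays and 1 array each at 0 h, 12 h and 24 h lay below every naive array. At 2 h the log2 difference from naive was -1.45 (SE 0.47, unadjusted p = 0.00647, limma adjusted p = 0.434), and -0.96 without 2 h replicate 1. Chrm5 also had the only unadjusted p under 0.05 in the F test across all 7 groups (0.0439, adjusted p = 0.48).

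Chrm2 by AB017655_s_at read 13.7, 16.5 and 8.87 in naive, 18.2 and 18.4 at 0 h, 17.4 and 86.3 at 2 h, 11.9 and 15.3 at 3 h, 14.5, 18.0 and 19.5 at 6 h, 26.9 and 20.9 at 12 h, and 25.3 and 12.1 at 24 h. Apart from 2 h replicate 2 it stayed close to the detection level. The 2 h difference was 1.62 (SE 0.54, adjusted p = 0.452), 0.47 without that array, 2.78 without 2 h replicate 1 and 0.78 with the actin ratio as a covariate. Its other probe set, J03025_at, was not above the level on any array (1.55 to 15.8).

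Chrm1 by M16406cds_s_at read 17.0, 12.1 and 42.8 in naive and 5.06 to 19.3 in trained arrays. All 13 trained arrays lay below the naive mean (log2 difference -1.03, SE 0.42, adjusted p = 0.922; -1.38 at 3 h and -1.19 at 6 h), which naive replicate 3 raised; without it the difference was -0.50. With both probe sets averaged it was -0.36, and with the actin ratio or Ttr as a covariate -0.66 or -0.56. By the other probe set, AJ006522mRNA_at, naive arrays read 11.8, 16 and 7.54 and the highest array was 12 h replicate 1 (39.8).

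Adra1d by M60654_at, given above, was -0.81 at 6 h (SE 0.28, adjusted p = 0.416; -0.47 without 6 h replicate 2 and -0.38 with both probe sets averaged) and -0.71 at 2 h (SE 0.31, adjusted p = 0.616). By AF071014mRNA_s_at the same differences were 0.04 (SE 0.35) and 0.32 (SE 0.39), so its 2 probe sets did not share a direction at either hour. Drd5 was 0.79 at 12 h (SE 0.31, adjusted p = 0.439), with 2 of 2 arrays above naive, 0.41 without 12 h replicate 1 and 1.24 with the actin ratio as a covariate. It was above the naive mean in 12 of 13 trained arrays.

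Hrh2, a histamine receptor that raises cyclic AMP, read 9.39, 10.1 and 15.1 in naive, 10.7 and 12.9 at 0 h, 25.2 and 19.0 at 2 h, 17.0 and 17.8 at 3 h, 2.79, 26.5 and 10.7 at 6 h, 35.4 and 20 at 12 h, and 19.6 and 13 at 24 h. Both arrays of the 2 h, 3 h and 12 h groups were above every naive array, and the 6 h arrays lay on both sides. At 12 h the difference was 1.24 (SE 0.55, adjusted p = 0.485), and 0.30 with the level of Ttr as a covariate. Drd1 by S46131mRNA_s_at read 18.3, 25.4 and 24.1 in naive, 36.6 and 34.0 at 2 h, 10.6, 11.2 and 23.6 at 6 h, and 17.1 to 30 at the other hours. The 2 h arrays were its highest, and 6 h replicates 1 and 2 its lowest; over the trained times the F test gave an adjusted p of 0.447. Its other probe sets, M35077_s_at and S46131mRNA_r_at, were at most 5.78 and 14.7.

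Htr2c encodes a serotonin receptor that acts through phospholipase C and is abundant in choroid plexus epithelium. By M21410_s_at it read 5.82, 22.6 and 25.6 in naive, 13.2 and 6.37 at 0 h, 15.5 and 26.8 at 2 h, 10.7 and 11.5 at 3 h, 7.64, 19.4 and 19.7 at 6 h, 2.21 and 3.82 at 12 h, and 15.4 and 2.17 at 24 h. Both 12 h arrays were under the lowest level of 5.05, so the fitted difference depends on where that level is set. It was -1.57 (SE 0.68, adjusted p = 0.477), -0.87 with the lowest level at the 30th percentile and -0.82 with Ttr as a covariate. Across all alternatives run it lay between -2.34 and -0.82. Its second probe set, U35315_at, was above the detection level on 0 arrays (median 1.09, highest 16.6). On 6 h replicate 1, which had the highest Ttr of the 16 arrays (12.06), M21410_s_at read 7.64 and U35315_at 1.12. On naive replicate 3, with a Ttr of 12.02, M21410_s_at read 25.6 and U35315_at 16.6, its highest. The relation of U35315_at to Ttr was not tested.

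The level of Ttr was set against each of the 45 receptor probe sets over the 16 arrays. After Benjamini-Hochberg adjustment 0 of the 45 relations passed by permutation (100000 permutations). By Pearson's r 1 (2.22%, against 3.84% of all tested) had an unadjusted p under 0.05, for Hrh2, and by Spearman's rho 2 (4.44%, against 4.54%), for Hrh2 and Chrna9. For Htr2c Pearson's r was 0.37 (permutation p = 0.15, adjusted p = 0.814), Spearman's rho 0.40 (p = 0.126, adjusted p = 0.709), and r was 0.39 without the 2 arrays farthest from the median Ttr and 0.30 in the 13 trained arrays. Hrh2 ran the other way, with r of -0.66 (p = 0.00441, adjusted p = 0.198), rho of -0.64 (p = 0.00907, adjusted p = 0.408), -0.63 without the 2 farthest arrays and -0.66 in the trained arrays.

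At 12 h, 30 of the 45 receptors had a fitted difference above naive and 15 below. Both 12 h arrays were above every naive array for 14 of the 45 tested receptors (31.1%), against 15.9% of all tested probe sets, and below for 3 (6.67%, against 11.8%). The 14 were Drd1, Drd5, Htr1d, Htr3a (by U59672_at), Adra2c, Chrm2, Chrm4, Hrh2, Chrna7 (by S53987_at), Chrna9, Chrna1, Chrnb1, Chrnd and Chrng. Chrna9 was above the detection level on 2 arrays only, and its 12 h readings (13.3 and 12.9) were under it. Htr3a by U59672_at was also above that level on 2 arrays only, and these were the 12 h arrays (21.2 and 20). It was thus tested only through the arrays on which it is counted here. The 14 included 4 of the 15 steady probe sets (26.7%, against 13.7% of all probe sets above the level on all 16 arrays) and 10 of the 30 others (33.3%, against 20%). The 3 that lay below were Htr1a, Htr2c and Chrm1 (by M16406cds_s_at). By AJ006522mRNA_at Chrm1 overlapped with naive at 12 h, with a difference of 1.13 (SE 0.55, adjusted p = 0.502). Chrna7 likewise overlapped by L31619_at (51.8 and 44.2, against 31 to 55.9 in naive) and by L31619_g_at (9.16 and 15.2, against 11.4 to 22.8). Its readings by S53987_at (18 and 17.9) were just above the highest naive array (17.4). Htr3a overlapped by its steady probe set U01227_s_at (90.4 and 83, against 71.9 to 94.6). The median difference at 12 h was 0.22, beside 0.061 for all tested probe sets.

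Of the muscle-type subunits 4 of 5 were among the 14. Chrng read 66.9, 75.1 and 90.5 in naive, 81.3 and 77.5 at 0 h, 112 and 90.6 at 2 h, 63.0 and 76.4 at 3 h, 79.7, 87.7 and 71.3 at 6 h, 115 and 105 at 12 h, and 89.8 and 80.0 at 24 h. It was above every naive array at 2 h and 12 h, by little on 2 h replicate 2, and its 12 h difference was 0.52 (SE 0.23, adjusted p = 0.479). Chrnd read 17.5, 22.1 and 17.7 in naive, 13.2 and 10.7 at 0 h, 23.5 and 19.5 at 2 h, 18.5 and 18.5 at 3 h, 23.8, 12.9 and 12.5 at 6 h, 43.0 and 24.7 at 12 h, and 16.2 and 7.86 at 24 h. It was above every naive array at 12 h and below every one at 0 h and 24 h, and over the trained times the F test gave an adjusted p of 0.44. Chrna1 (26.2 and 23.8 at 12 h, at most 19.7 in naive) and Chrnb1 (40.1 and 30.1, at most 29.9) went the same way, and Chrne did not (10.7 and 23.3, against 13.4 to 15.2). Chrnd and Chrng are neighbours in the rat genome, as are Chrna6 and Chrnb3, Chrna5 and Chrna3, and Chrna3 and Chrnb4. At 0 h and 24 h, where Chrnd was below every naive array, Chrng overlapped with naive. Whether position in the genome bears on these readings was not tested.

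The 12 h arrays differ in how they were scaled: replicate 1 was multiplied by 3.16, the highest factor of the 16, and replicate 2 by 0.91. On each of them 20 of the 45 receptors (44.4%) were above every naive array, against 31.7% and 31.6% of all tested probe sets. Leaving out either 12 h array gave 19 in place of 14 (43.2%, against 31.6% of all tested), since 1 array then had to meet the condition. Median centring gave 10 (22.2%, against 11.2%) and quantile normalization 11 (24.4%, against 13.9%). The number of 12 h receptors with an unadjusted p under 0.05 went from 4 to 1 without 12 h replicate 1 or without naive replicate 1. The actin 3'/5' ratio read 2.40 on replicate 1 and 2.80 on replicate 2, both higher than in any naive array. With that ratio as a covariate the count with an unadjusted p under 0.05 was 5, and with Ttr it was 1.

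At 2 h, 8 receptors (17.8%, against 15.3%) were above every naive array on both arrays and 4 (8.89%, against 11.7%) below, with a median difference of 0.18 beside 0.027. At 3 h the balance was the other way, with 1 (2.22%, against 7.30%) above, 6 (13.3%, against 12.0%) below, and a median of -0.15 beside -0.074. At 0 h, 2 receptors were above every naive array (4.44%, against 10% of all tested) and 2 below (4.44%, against 11.7%). At 6 h, 3 were above (6.67%, against 4.34%) and 2 below (4.44%, against 6.56%). At 24 h, 1 was above (2.22%, against 8.86%) and 3 below (6.67%, against 11.8%). The medians at 0 h, 6 h and 24 h were -0.016, -0.047 and -0.0075. These comparisons share the same 3 naive arrays and are not independent of each other.

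**Figure D4:**
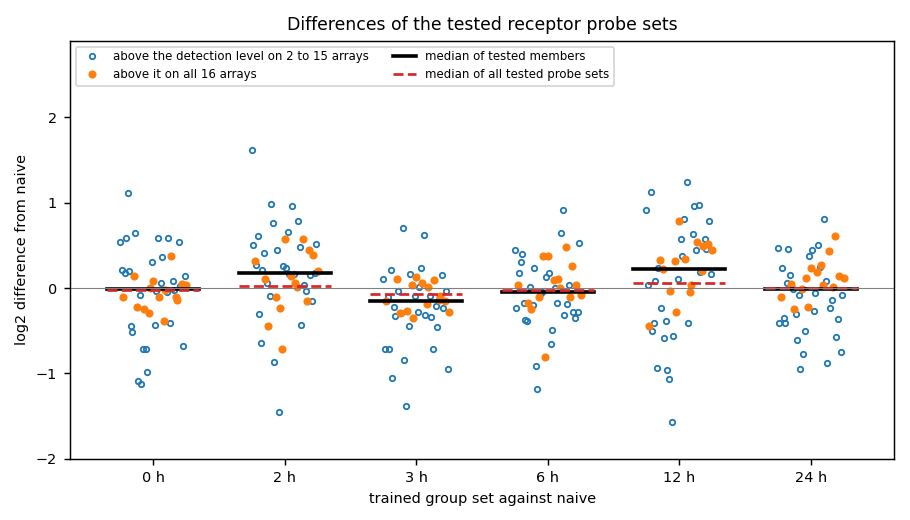
Log2 difference from naive of the 45 tested receptor probe sets at each hour (filled points: above the detection level on all 16 arrays; open points: on 2 to 15), with their median (black bar) and the median of all 6220 tested probe sets (dashed red bar). The receptor median is 0.18 at 2 h, -0.15 at 3 h and 0.22 at 12 h, and the filled points keep a smaller spread than the open ones.

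Genes that make, move and break down the transmitters were read from a fixed list of 28, of which 23 were on the array with 37 probe sets; 23 probe sets were tested and 0 passed in any comparison. The monoamine oxidases that degrade serotonin and catecholamines were above the level on all 16 arrays (Maoa 155 to 418 by one probe set, Maob 254 to 456), as was acetylcholinesterase, Ache, by one of 3 probe sets (61.2 to 106). Enzymes of transmitter synthesis were mixed. Dbh, which makes noradrenaline, was at most 6.01, Tph1, an enzyme of serotonin synthesis, 7.95, and Hdc, which makes histamine, 13.4. Tph2, the other listed gene of the same serotonin step, was not among those on the array, so that step was read by Tph1 alone. Th, the first enzyme of catecholamine synthesis, was above the level on 12 arrays (10 to 48.7), Chat, which makes acetylcholine, on 8 (6 to 29.2), and Pnmt, which makes adrenaline, on 15 (9.22 to 78.3). The vesicular acetylcholine transporter Slc18a3 was above it on all 16 arrays by both probe sets (40.5 to 78.8 and 29.7 to 58.2). The membrane transporters of serotonin and noradrenaline split like some of the receptors. Slc6a4 read 42.7 to 99.2 by X63995_at and was above the level on 5 arrays by another, and Slc6a2 read 18.8 to 40.7 by L29573_s_at and 1.03 to 2.60 by Y13223cds_at. Trained minus naive, the list had a median of 0.055, with 1 probe set higher at an unadjusted p under 0.05 (1.66% of all tested), for Gch1, an enzyme of the cofactor of monoamine synthesis (0.72, SE 0.34, by rc_AI043643_at), and 0 lower. The other 3 Gch1 probe sets were above the level on 0, 0 and 1 array.

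Signalling partners of the receptors were read from a fixed list of 34, of which 24 were on the array with 40 probe sets, 26 of them above the level on all 16 arrays. Of the 37 tested, 0 passed in any comparison, and trained minus naive had a median of 0.024. The G protein subunit Gnai1, through which receptors lower cyclic AMP, was the 1 probe set lower at an unadjusted p under 0.05 (against 3.70% of all tested): -1.08 (SE 0.31), and -1.43 at 6 h (SE 0.40, adjusted p = 0.373). At 2 h 6 of 37 had an unadjusted p under 0.05, 4 higher (against 3.6% of all tested) and 2 lower (against 4.07%). Among them were the G protein subunit Gnao1 by M17526_g_at (0.86, SE 0.21, adjusted p = 0.236) and the receptor kinase Grk2 by M87854_at (-0.73, SE 0.25, adjusted p = 0.465).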

How the data were processed

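The deposited values are linear intensity summaries, 1 per probe set and array, in 8799 rows of which 59 are controls. The sources used here name no software or background correction for them. The members and gene lists were chosen with earlier results of these data known. Gene names came from the platform annotation and were brought up to date by RefSeq gene identifier (GRCr8). Probe sets with several symbols (308) or none (1426) stayed unnamed. Scaling gave every array the same 2% trimmed mean (105). The pooled 20th percentile (5.05) served as the lowest level before log2. Probe sets above the pooled 40th percentile (16.9) on at least 2 arrays (6220) entered a linear model in limma 3.58.1, run in R 4.3.3 (lmFit, eBayes with a variance trend, all 7 groups), and p-values were adjusted by Benjamini-Hochberg at 0.05. The linear model was tested on simulated data with known changes. Every receptor was named; full statistics went to the 10 genes with the smallest p in any comparison. Alternatives covered the normalization, lowest level, filter, model, covariates and left-out arrays; the 12 h overlap count, the relation to scaling and their alternatives were added after seeing the data. Tests over the relation to Ttr used permutation. Precision is limited by the number of arrays. Probe sequences were not used here.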

Additional observations from a re-analysis of the deposited data

How the results depend on the processing

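In all alternatives run (normalization, lowest level, filter, variance model, array weights, replicate block, covariates, averaged probe sets, only the groups compared, and each of the 16 arrays left out), 0 receptors passed the adjusted threshold in the 9 comparisons, and 0 relations to Ttr passed where that was rerun. Signs were followed only among the 10 genes with the smallest p, each in the comparison that gave that p. Chrnd and Drd1 were named through an F test, which has no sign. For the rest of the 10 no log2 difference changed sign, but these had been chosen for a small p in the same data. Other differences named in the text were not followed. The tested receptor probe sets were 68 without a filter and 15 with a filter at the 60th percentile, in place of 45. Those above the detection level on all arrays were 24 with the level at the 30th percentile and 5 at the 60th, in place of 15. The median trained minus naive was 0.14 with the actin ratio as a covariate, in place of 0.01, and -0.085 to 0.049 when arrays were left out; the cause was not tested. Counts at an unadjusted p under 0.05 moved by over 1.5 times in many settings: from 1 to between 0 and 5 for trained against naive, from 3 to between 1 and 6 at 2 h, from 4 to between 1 and 7 at 12 h, and from 1 to between 0 and 4 over the 7 groups. The 12 h count above every naive array, examined after seeing the data, was 10 to 19. The share of receptors was 22.2% to 43.2%, beside 11.2% to 31.6% of all tested probe sets. It was the higher of the pair in 21 of 21 settings, but these are not separate checks. Settings that left out an array of another hour kept the same naive and 12 h arrays, so this count could hardly move. Deviations of arrays with the same replicate number correlated at -0.20 to 0.19 (median 0.02, over 0.1 in 12 of 43 pairs), and of arrays with different numbers at -0.19 to 0.18 (median -0.02, over 0.1 in 6 of 66). These correlations do not decide whether arrays with the same number share more than that number, and the main model left the number out. With the replicate block 0 receptors passed in any comparison and the median was -0.013.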

Other observations

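Among the 68 receptor probe sets, 19 (27.9%) had their highest scaled intensity on 12 h replicate 1, against 16.4% of all probe sets. This array had the lowest intensity before scaling. The arrays with the next most were 6 h replicates 1 and 2, with 8 receptor probe sets each (11.8%, against 7.40% and 10.5% of all). 6 h replicate 3 and 24 h replicate 2 were highest for 0. Of the 19 that were highest on 12 h replicate 1, 15 were not above the detection level on all 16 arrays. Most of the 68 were not either, since 15 (22.1%) were above it on all 16. Over the 16 arrays, the mean deviation of the 45 tested receptors had a Pearson's r of 0.46 with the log2 scaling factor (permutation p = 0.079, adjusted p = 0.26 over 6 such sets) and a Spearman's rho of 0.40 (p = 0.13, adjusted p = 0.50); r was 0.34 without 12 h replicate 1 and 6 h replicate 1. For all 6220 tested probe sets r was 0.24 (permutation p = 0.36, adjusted p = 0.43). These relations were examined after seeing the data.

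On 3 h replicate 2 the tested receptors were lowest on average (-0.38 on the log2 scale from each probe set's mean), with 23 of 68 above the detection level, and 2 of 45 (4.44%, against 18.8% of all tested) lay above every naive array. On 24 h replicate 2 the same count was also 2 (4.44%, against 18.4%). The highest average was on 2 h replicate 1 (0.21).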
